A study of Mus musculus with 20 samples.

Results

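Pericytes and vascular smooth muscle cells, together called mural cells, are wrapped around the vessels of the prefrontal cortex, and 10 of their genes are described here over 4 regimes of social stress. The genes are Acta2, Myh11 and Tagln of contractile smooth muscle, Rgs5, Pdgfrb, Vtn, Cspg4, Kcnj8 and Abcc9 of pericytes, and Notch3, which both cell types use. Members were taken by gene name from the array tables, and each had exactly 1 probe, so that 10 of 39429 probes were members. The probes of Acta2 and Vtn were spotted 10 times on each array and the others once, 28 of 43020 spots in all.

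Male Swiss-Webster mice, moved to single cages at 12 weeks of age and habituated there, were placed as intruders into cages of group-housed males. The 4 stress groups had a single encounter (acute), encounters over 8 days, encounters over 13 days, or the 13-day regime and then 5 days of rest (recovery), and each had an unstressed control group of its own, also housed singly. Tissue was taken 24 hours after the last encounter, or after the rest in recovery, as a 1 mm slice of the frontal pole. RNA of 3 mice made a pool, from the mice of each group that had yielded the most RNA. A stress pool and a control pool of sibling mice were hybridised together on a dual-colour array, with 3 pairs of pools per time point and 20 arrays in all. Pairs 2 and 3 had an original and a dye-swap array, while pair 1 had 1 array with stress in Cy5. Pooling hides the spread between single mice.

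Mural cells surround the endothelial tube. Smooth muscle cells coat arterioles and contract through actin and myosin, while pericytes sit on capillaries inside the basement membrane and depend on PDGF-B that the endothelium secretes. Pericytes help to keep the barrier between blood and brain closed, and both cell types take part in setting blood flow. Because the tissue was bulk cortex, fewer cells of a type and less RNA per cell cannot be told apart.

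The array reads each gene through a probe of 60 bases, and the probes of Myh11, Vtn and Cspg4 are shown because they report on the contractile myosin, the secreted adhesion protein and the surface proteoglycan. Each had an open reading frame over its whole length in at least 1 frame. The Myh11 probe lies at chr16:14202190-14202249 (mm9, minus strand), the Cspg4 probe at chr9:56746627-56746686 (mm9, plus strand) and the Vtn probe at chr11:78315393-78315665 (mm9, plus strand), an interval longer than the probe, so that the Vtn probe crosses a splice junction. No part is in capitals.
Myh11: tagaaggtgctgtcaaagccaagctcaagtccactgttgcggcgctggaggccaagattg
Vtn: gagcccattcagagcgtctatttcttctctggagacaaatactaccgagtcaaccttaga
Cspg4: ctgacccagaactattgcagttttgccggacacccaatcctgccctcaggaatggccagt

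Contractile genes are known to be switched on together through the CArG box, the site of serum response factor, and the Acta2 promoter is shown because Acta2 and Tagln moved together over the pools. The sequence is the 250 bases before the RefSeq start of Acta2 at chr19:34255374-34255623 (GRCm38.p6, minus strand), with CArG boxes that have at most 1 G or C among their 6 core bases in capitals.
Acta2: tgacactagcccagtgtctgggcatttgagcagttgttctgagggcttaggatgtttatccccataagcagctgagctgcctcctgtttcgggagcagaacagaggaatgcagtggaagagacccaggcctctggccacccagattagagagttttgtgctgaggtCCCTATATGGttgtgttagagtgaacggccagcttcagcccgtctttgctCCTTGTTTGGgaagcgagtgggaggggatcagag
The motif reads the same on both strands, and the 2 boxes begin at positions -84 and -34 from the start. Over 32851 RefSeq promoter windows of this length, 8.59% held at least 1 such box and 0.67% held at least 2, and the box without any G or C in its core stood in 1.47%. Of the 10 members 7 had a promoter in the RefSeq table, which lacked Myh11, Tagln and Pdgfrb. Besides Acta2, the other 6 (Rgs5, Vtn, Cspg4, Kcnj8, Abcc9 and Notch3) held no such box in the window, and none of them is contractile. Over the pools Acta2 had a Pearson r of 0.78 with Myh11, 0.76 with Tagln and 0.75 with Vtn, which held no such box. Myh11 with Tagln had 0.35. Whether Tagln or Myh11 has the box was not looked up, so a shared box was not tested.

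All 10 probes were well above background on all 20 arrays and 0 of their spots were saturated. A spot counted as above background when either channel was, so this does not show that stress and control both were. Probes for genes of both cell types thus gave signal in either channel at every time point, which does not by itself show expression. The 10 markers of endothelium were also above background on every array, as were the 5 neuronal markers, while 2 of 5 skeletal muscle markers and 3 of 5 choroid plexus markers were. An array had 70.5% to 74.3% of its probes well above background and a median signal of 78.9 to 142 in the green channel against 153 to 233 in the red one, and the number of arrays limits the precision.

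None of the 10 genes passed the test at any time point. The test was limma on log2 ratios of stress over control with n = 3 pairs of pools per time point, and a call needed both an adjusted p (Benjamini-Hochberg, all probes) under 0.05 and a log2 ratio beyond 0.5 either way. After acute stress 0 of 10 members were called, against 0.00254% of all probes. The counts were 0 of 10 against 0% after 8 days, 0 of 10 against 0.0228% after 13 days and 0 of 10 against 0% in recovery. Log2 ratios of members spanned -0.17 to 0.02 in the acute comparison, -0.01 to 0.18 at 8 days, -0.15 to 0.08 at 13 days and -0.08 to 0.20 in recovery. Their 95% intervals all lay within folds of 0.80 to 1.29, and a call needed a fold beyond these intervals. The median probe had a log2 ratio of 0 at each time point, and the SD of the fitted log2 ratios over all probes was 0.0704, 0.0584, 0.0744 and 0.0648 in the order of the times.

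**Figure D1:**
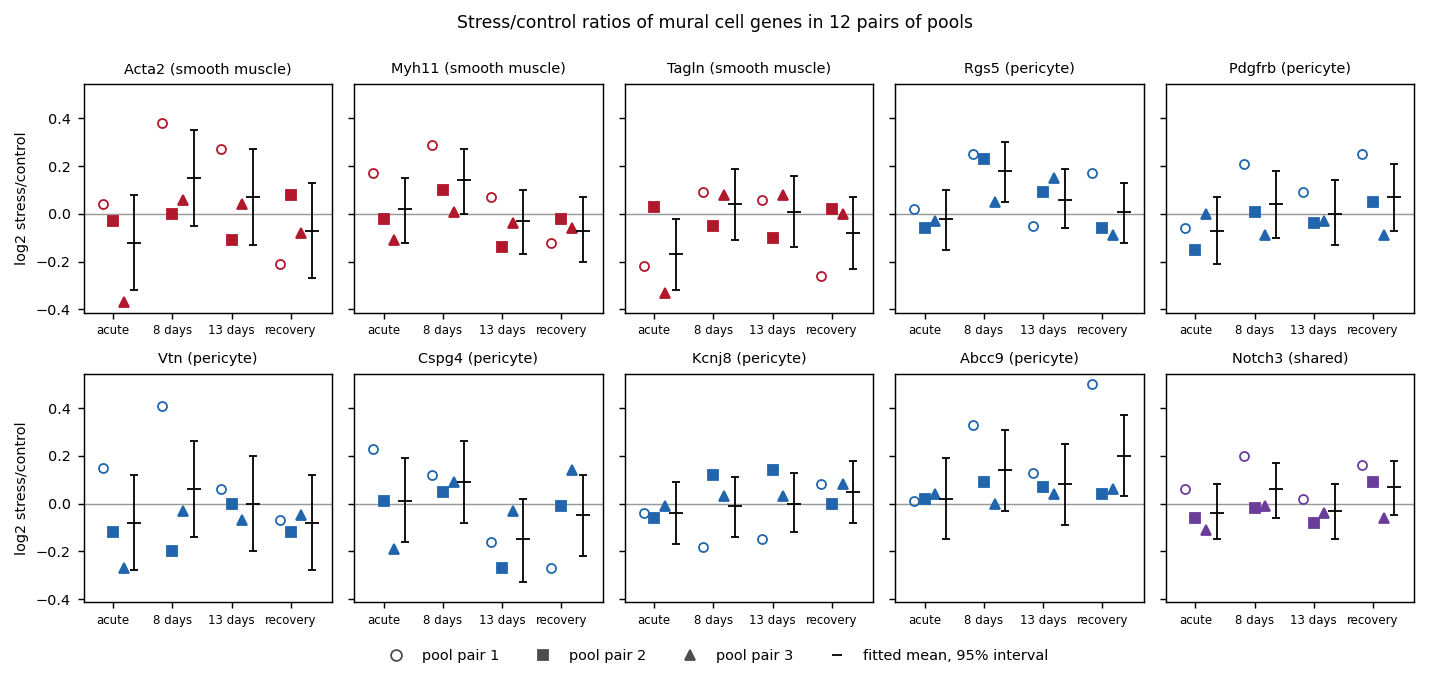
Log2 ratios of stress over control for 10 mural cell genes, with the 4 time points on the horizontal axis, a symbol for each of 3 pairs of pools (open for pair 1, which had a single array) and a black bar for the fitted mean with its 95% interval. The pairs lie between -0.37 and 0.50, with the open circle of pair 1 highest after 8 days in 9 of 10 panels.

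Acta2 encodes the alpha actin of smooth muscle. Its log2 ratio in pairs 1, 2 and 3 was 0.04, -0.03 and -0.37 after acute stress and 0.38, 0.00 and 0.06 after 8 days. It was 0.27, -0.11 and 0.04 after 13 days and -0.21, 0.08 and -0.08 in recovery. The single pairs 3 of acute stress and 1 of 8 days thus stood on opposite sides of 0, and the other pairs of those time points lay near 0. In normalized intensity, acute pair 3 had 877 in stress and 1130 in control, and pair 1 of 8 days had 1020 in stress and 787 in control. The fitted ratio was -0.12 after acute stress (SE 0.0926, limma adjusted p = 0.976) and 0.15 after 8 days (SE 0.0926, limma adjusted p = 1). Without pair 3 the acute ratio of Acta2 was 0.00, and without pair 1 the ratio after 8 days was 0.03. The 10 spots of an array gave log2 ratios with an SD of 0.006 to 0.047, which covers spot noise within 1 hybridisation only.

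Tagln encodes SM22 alpha, a protein that binds actin in smooth muscle. Its ratio was -0.22, 0.03 and -0.33 in acute pairs 1, 2 and 3, where stress had 1230, 1560 and 1290 and control had 1430, 1530 and 1630. Stress was lower in pairs 1 and 3 only, and the ranges of both groups overlapped. At -0.17 (SE 0.0693) this was the lowest member ratio at any time point, with an unadjusted limma p of 0.0285 and an adjusted p of 0.976. Tagln was the 1 member of 10 with an unadjusted p under 0.05 and a lower ratio after acute stress, against 2.57% of all probes, and 0 of 10 had one with a higher ratio, against 2.38%. Ratios of Tagln at later times were 0.09, -0.05 and 0.08 after 8 days, 0.06, -0.10 and 0.08 after 13 days, and -0.26, 0.02 and 0.00 in recovery.

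Myh11 encodes the myosin heavy chain that defines mature smooth muscle. Its ratios in pairs 1, 2 and 3 were 0.17, -0.02 and -0.11 after acute stress, 0.29, 0.10 and 0.01 after 8 days, 0.07, -0.14 and -0.04 after 13 days, and -0.12, -0.02 and -0.06 in recovery. After 8 days stress pools had 218, 208 and 222 and control pools 179, 193 and 220, so that every stress pool was higher than its own control while the ranges of both groups overlapped. At 0.14 (SE 0.0611) the fitted ratio after 8 days had an unadjusted limma p of 0.0458 and an adjusted p of 1. This probe is dim, with spot means between 54.9 and 197, and its ratio after 8 days was 0.33 when the background was corrected with an offset of 0 in place of 50.

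Among pericyte genes Rgs5, which encodes a regulator that shortens G protein signals in mural cells, was highest after 8 days. Its ratios there were 0.25, 0.23 and 0.05, where stress had 1150, 1110 and 1170 and control had 963, 949 and 1140. Stress was higher in every pair, in pairs 1 and 2 by similar amounts, and the ranges of both groups overlapped. The mean of 0.18 (SE 0.0577) had the lowest unadjusted limma p of all members, 0.00925, and an adjusted p of 1. In pair 2 the original array gave 0.17 and the dye swap 0.29, and in pair 3 they gave 0.02 and 0.07. Rgs5 and Myh11 were the 2 members of 10 higher after 8 days at an unadjusted p under 0.05, against 0.723% of all probes, and 0 of 10 were lower, against 1.67%. With the slide as a block on 20 arrays the ratio of Rgs5 was 0.16 (limma adjusted p = 0.876). At the other times Rgs5 had ratios of 0.02, -0.06 and -0.03 (acute), -0.05, 0.09 and 0.15 (13 days) and 0.17, -0.06 and -0.09 (recovery).

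**Figure D2:**
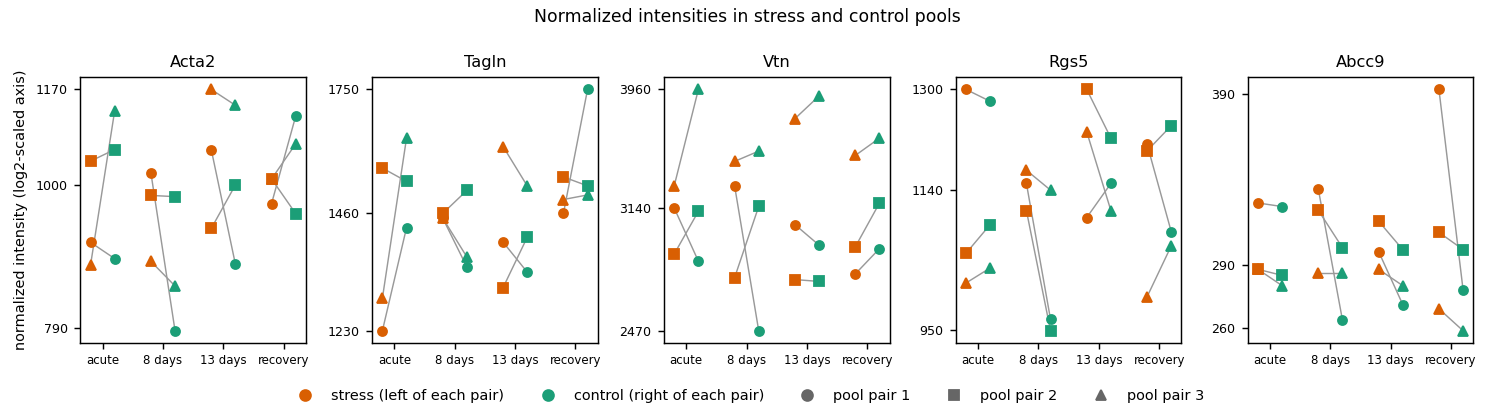
Normalized intensity of 5 genes on a log2-scaled axis at 4 time points, with the stress pool (orange) left of the control pool (green) of the same pair, joined by a line, and a symbol for each pair. For Rgs5 all 3 lines slope down to control after 8 days, and for Acta2 the steepest lines are acute pair 3 (877 against 1130) and 8-day pair 1 (1020 against 787).

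Pdgfrb encodes the receptor through which pericytes are recruited to vessels. Its ratios in pairs 1, 2 and 3 were -0.06, -0.15 and 0.00 after acute stress, 0.21, 0.01 and -0.09 after 8 days, 0.09, -0.04 and -0.03 after 13 days, and 0.25, 0.05 and -0.09 in recovery. Pair 1 was the highest from 8 days onwards, and the fitted ratios stayed between -0.07 and 0.07. Notch3, the receptor that keeps arterial smooth muscle mature, had ratios of 0.06, -0.06 and -0.11, then 0.20, -0.02 and -0.01, then 0.02, -0.08 and -0.04, and 0.16, 0.09 and -0.06 in recovery. It had the smallest SE of the members, 0.0539, and fitted ratios between -0.04 and 0.07.

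Vtn encodes vitronectin, an adhesion glycoprotein that brain pericytes secrete. Its ratios were 0.15, -0.12 and -0.27 after acute stress and 0.41, -0.20 and -0.03 after 8 days, so that the pairs of one time point went both ways. In pair 1 of 8 days stress had 3280 and control 2470, and in pair 2 stress had 2740 and control 3150. The pairs were closer together after 13 days (0.06, 0.00 and -0.07) and in recovery (-0.07, -0.12 and -0.05), where stress was lower in every pair and the fitted ratio was -0.08 (SE 0.0932, limma adjusted p = 0.999). The 10 Vtn spots of an array had an SD of 0.012 to 0.085.

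Cspg4 encodes the NG2 proteoglycan, which marks pericytes and also oligodendrocyte precursors. Its ratios were 0.23, 0.01 and -0.19 after acute stress, 0.12, 0.05 and 0.09 after 8 days, -0.16, -0.27 and -0.03 after 13 days, and -0.27, -0.01 and 0.14 in recovery. After 13 days stress had 582, 487 and 598 and control had 650, 589 and 611, with stress lower in every pair. The fitted ratio was -0.15 (SE 0.0795), with the lowest adjusted limma p of a member at that time, 0.737. In pair 2 the original array gave 0.03 and the dye swap -0.57, the largest gap between the orientations of any member. The 5 precursor markers (Olig1, Olig2, Sox10, C1ql1 and Gpr17) had a median ratio of 0.29 in acute pair 1, where Cspg4 had 0.23, and of 0.01 and -0.03 in acute pairs 2 and 3. After 13 days their median was 0.02, with summed stress levels of 5410 to 6140 and summed control levels of 5580 to 6940, and all 5 were above background. The part of precursors in the ratio of Cspg4 was not tested.

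Kcnj8 and Abcc9 encode the pore and the sulfonylurea receptor of the ATP-sensitive potassium channel of pericytes. Kcnj8 had ratios of -0.04, -0.06 and -0.01 after acute stress, -0.18, 0.12 and 0.03 after 8 days, -0.15, 0.14 and 0.03 after 13 days, and 0.08, 0.00 and 0.08 in recovery. Its probe is dim, with spot means between 56.3 and 149. Abcc9 had ratios of 0.01, 0.02 and 0.04, then 0.33, 0.09 and 0.00, then 0.13, 0.07 and 0.04, and 0.50, 0.04 and 0.06 in recovery. In recovery the stress pools had 393, 307 and 269 and the control pools 278, 298 and 259, so that pair 1 stood apart from the rest. The fitted ratio of 0.20 (SE 0.0778) was the highest member ratio at any time, with an unadjusted limma p of 0.024 and an adjusted p of 0.999. Without pair 1 it was 0.05. Abcc9 was the 1 member of 10 with an unadjusted p under 0.05 and a higher ratio in recovery, against 0.926% of all probes, and 0 of 10 were lower, against 2.63%. After 13 days no member had an unadjusted p under 0.05 in either direction, against 3.05% of all probes higher and 4.13% lower. The channel subunits of neurons, Kcnj11 and Abcc8, had medians of 0.10, -0.01, 0.00 and -0.10 over the 4 times, with Abcc8 at 0.14 after acute stress (limma adjusted p = 0.976) and Kcnj11 at -0.13 in recovery (limma adjusted p = 0.999).

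The direction in single pairs was also counted, with any value above or below 0 taken as a direction. Acta2 in 8-day pair 2 (983 in stress, 981 in control) and Pdgfrb in acute pair 3 (630 in stress, 631 in control) were counted this way although their ratios round to 0.00. After acute stress Abcc9 was the 1 of 10 members higher in 3 of 3 pairs, against 13.9% of all probes, and Pdgfrb and Kcnj8 were the 2 of 10 lower in 3 of 3, against 14.4%. After 8 days Acta2, Myh11, Rgs5 and Cspg4, 4 of 10 members, were higher in 3 of 3 pairs, against 7.5% of all probes, and 0 of 10 were lower, against 11.1%. The 8-day ratios were above 0 in 9 of 10 members, against 49.1% of all probes. With medians of 0.23, 0.03 and 0.02 in pairs 1, 2 and 3, however, most of their size lay in pair 1. After 13 days 1 of 10 members was higher in 3 of 3 pairs (Abcc9), against 12.2%, and 1 of 10 was lower (Cspg4), against 14.4%. In recovery 1 of 10 was higher (Abcc9), against 8.37%, and 2 of 10 were lower (Myh11 and Vtn), against 12.6%.

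Original and dye-swap arrays set how firmly a single pair can be read. Over the 10 members and 8 pairs with both orientations there were 80 values, of which 34 had the same sign in both, 36 had opposite signs and 10 had at least 1 value of 0.00. The median gap between orientations was 0.12 on the log2 scale and the widest was 0.60. Acute pair 3 was the place where both orientations gave a clearly lower stress level in several members. There Acta2 had -0.33 and -0.40, Tagln -0.31 and -0.35, and Vtn -0.26 and -0.29 on the original and the swap. Between the orientations of a pair, both expressed as stress over control, r over all probes was below 0 in every swapped pair, from -0.36 to -0.09. Probes higher in one orientation thus tended to be lower in the other, beyond a mere lack of repeat. The cause was not tested. The pairs numbered 1 have no swap here, so a dye effect on their ratios is not averaged out. From the swapped pairs, the mean dye effect on the log2 ratio, by which the original lies above the mean of both orientations, was between -0.06 and 0.07 over the members, with 0.02 for Acta2, 0.00 for Vtn and -0.05 for Abcc9.

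**Figure D3:**
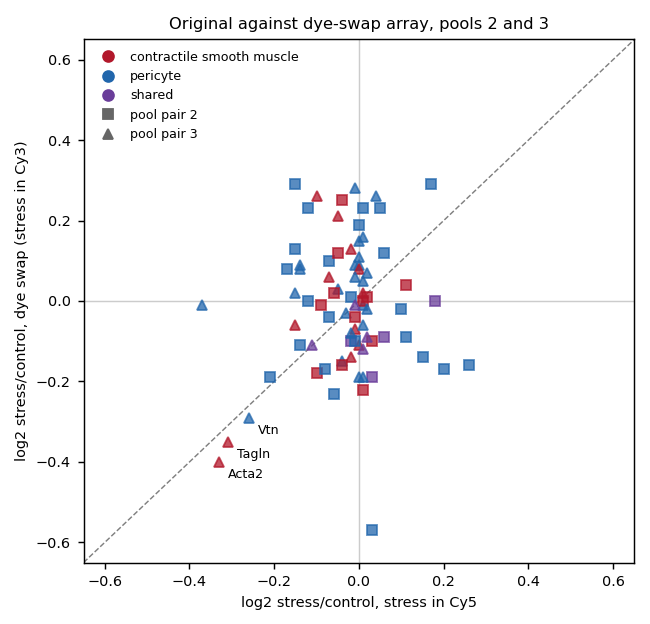
Log2 ratio of stress over control on the original array (horizontal) and on the dye-swap array (vertical) for 10 genes in pairs 2 and 3, 80 points coloured by group of genes, with a dashed line of equality. Acta2, Tagln and Vtn of acute pair 3 lie together on the line at the lower left, and most other points lie near 0 on the horizontal axis.

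The second question was whether contractile and pericyte genes moved apart. For Acta2, Myh11 and Tagln together the mean log2 ratio was -0.09 (acute), 0.11 (8 days), 0.02 (13 days) and -0.07 (recovery). The mean of the 6 pericyte genes was -0.03, 0.08, 0.00 and 0.03 at the same times. The difference, smooth muscle minus pericyte, was -0.05, 0.05 and -0.19 in acute pairs 1, 2 and 3 and 0.06, -0.03 and 0.04 after 8 days. It was 0.15, -0.11 and 0.01 after 13 days and -0.30, 0.04 and -0.05 in recovery. Its mean was -0.06 ± 0.12, 0.03 ± 0.05, 0.02 ± 0.13 and -0.11 ± 0.18 (SD, n = 3 pairs), within the SD of the pairs at every time point. In recovery pair 1 contractile genes were at -0.19 and pericyte genes at 0.11, and without that pair the mean difference was -0.01. The 6 pericyte genes include Rgs5, a gene of mural cells, and Cspg4, which also marks precursors, so they do not stand for pericytes alone. With Vtn, Kcnj8 and Abcc9 as the only pericyte genes the difference was -0.04, 0.05 and -0.19 in acute pairs 1, 2 and 3. It was then 0.07, 0.02 and 0.05 after 8 days and 0.12, -0.19 and 0.03 after 13 days. In recovery it was -0.37, 0.05 and -0.07. No test was made of these means and differences.

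**Figure D4:**
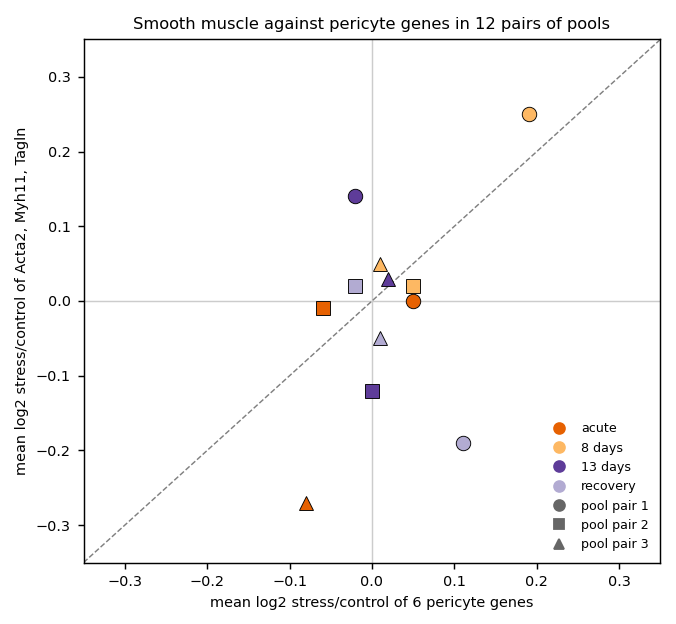
Mean log2 ratio of 6 pericyte genes (horizontal) against that of Acta2, Myh11 and Tagln (vertical) in 12 pairs of pools, coloured by time point with a symbol for each pair, and a dashed line of equality. Acute pair 3 (-0.08 and -0.27) and recovery pair 1 (0.11 and -0.19) lie farthest below the line, and 8-day pair 1 (0.19 and 0.25) lies highest.

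Differences of the stress effect between time points were contrasts of the same fit. For 8 days minus acute all 10 members had a difference above 0, between 0.03 and 0.27, and 0 of 10 were called, against 0% of all probes. The share of all probes with a difference above 0 was not counted, so the direction of the 10 is a description. Contrasts against acute share the acute pools. The only unadjusted limma p under 0.05 was 0.0306 for Rgs5 (difference 0.20, SE 0.0816, adjusted p = 1). Acta2 had the largest difference at 0.27 (SE 0.131), with an adjusted limma p of 1. For 13 days minus acute 0 of 10 were called, against 0.00254%, with a lowest unadjusted p of 0.0835. The counts were 0 of 10 against 0% for 13 days minus 8 days, where the lowest unadjusted p was 0.0505, and 0 of 10 against 0% for recovery minus 13 days, where it was 0.219.

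Over the 12 pairs of pools, members moved with each other in some pairs of genes. Of 45 pairs of genes 32 had a positive Pearson r, with a median of 0.33 and a range of -0.66 to 0.90, and 4 passed 0.05 after Benjamini-Hochberg adjustment of permutation p-values over the 45. These were Pdgfrb with Abcc9 (r = 0.90, permutation p = 7e-05, adjusted p = 0.00315, Spearman rho = 0.81, rho p = 0.00184), Acta2 with Myh11 (r = 0.78, permutation p = 0.00226, adjusted p = 0.0296, rho = 0.82, rho p = 0.0017), Pdgfrb with Notch3 (r = 0.80, permutation p = 0.00262, adjusted p = 0.0296, rho = 0.61, rho p = 0.04) and Acta2 with Tagln (r = 0.76, permutation p = 0.00263, adjusted p = 0.0296, rho = 0.76, rho p = 0.00623). By rho 2 of 45 passed, Pdgfrb with Abcc9 and Acta2 with Myh11, both with an adjusted p of 0.0414. Across the groups Acta2 with Vtn had r = 0.75 (permutation p = 0.00633, adjusted p = 0.057, rho = 0.54, rho p = 0.0741), and Myh11 with Tagln, both contractile, had 0.35. The lowest r was that of Acta2 with Kcnj8, at -0.66 (permutation p = 0.0189, adjusted p = 0.0945, rho = -0.59, rho p = 0.0463).

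Each pair number has slides of its own, and pair 3 also has a scan day of its own, so the relations were recomputed within parts of the data. With the mean of each pair number removed, a setting added after seeing the data, 1 of 45 passed in an exact permutation test, Acta2 with Tagln (r = 0.94, exact permutation p = 0.000868, adjusted p = 0.0391). Pdgfrb with Abcc9 had r = 0.83, Acta2 with Myh11 0.73 and Pdgfrb with Notch3 0.60. In pairs 2 and 3 alone, 8 pairs of pools, 0 of 45 passed in an exact permutation test, and r was 0.54 for Pdgfrb with Abcc9, 0.58 for Acta2 with Myh11, 0.44 for Pdgfrb with Notch3 and 0.94 for Acta2 with Tagln (exact permutation p = 0.0062, adjusted p = 0.279). With the mean of each time point removed, r was 0.89, 0.88, 0.78 and 0.66 for the same 4 in the order just given. The 1296 exact permutations within time points allow no p under 0.000772, or 0.0347 after adjustment for a lone pair of genes, so that this test could hardly pass and its count of 0 of 45 says little. Without the 2 pairs of pools farthest from the median of the first gene, which also narrows the range of that gene, r was 0.72, 0.62, 0.40 and 0.59.

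**Figure D5:**
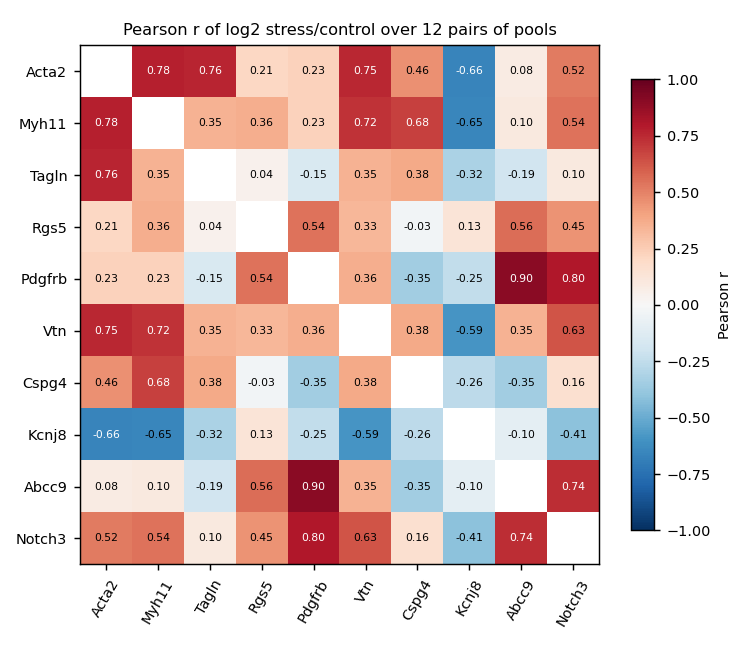
Pearson r between log2 ratios of stress over control of 10 genes over 12 pairs of pools, from -1 in blue to 1 in red, with the value in each cell. Pdgfrb with Abcc9 has the highest r, 0.90, and Kcnj8 has negative r with Acta2 (-0.66), Myh11 (-0.65) and Vtn (-0.59).

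Outside the members, the 3 genes whose ratios over the 12 pairs were most like the mean of the contractile genes, among 26075 candidate probes, were Csnk2a2, a catalytic subunit of casein kinase 2 (r = 0.92), Nr2f6, an orphan nuclear receptor (r = 0.92), and Gja4, connexin 37 of arterial gap junctions (r = 0.92). In pairs 2 and 3 alone they had r of 0.83, 0.83 and 0.90. The 3 most like the mean of the pericyte genes were Glce, an enzyme of heparan sulfate synthesis (r = 0.94), Prtg, protogenin (r = 0.93), and Rnf144a, a ubiquitin ligase (r = 0.91), with 0.90, 0.85 and 0.81 in pairs 2 and 3. They were picked as the highest of all candidates, over pools that share slides, so these values are a description.

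Other genes of mural cells and their signals were read from lists. Of 14 further contractile genes 0 were called at any time point, and their median ratios were -0.04, 0.03, 0.01 and 0.00 over the 4 times. Myl9, the regulatory myosin light chain, had -0.14, -0.09 and -0.32 in acute pairs 1, 2 and 3 (fitted -0.18, limma adjusted p = 0.87), and Tpm2, a tropomyosin, had -0.10, -0.12 and -0.15 (fitted -0.12, limma adjusted p = 0.906). Both were lower in every acute pair, and 5 of the 14 were, against 14.4% of all probes. Of the 14, 9 were above background on all 20 arrays. Among the 5, Actg2 was above background on 5 arrays and Pln on 10. Of 14 other mural genes 0 were called, with medians of -0.01, 0.06, 0.04 and 0.04. Foxc1, a transcription factor of mural and meningeal cells, had -0.16 after acute stress (limma adjusted p = 0.462), and Cd248, endosialin, had 0.15 after 8 days (limma adjusted p = 1). Of 14 ligands, receptors and targets 0 were called, with medians of -0.06, 0.03, 0.00 and 0.06. Tgfbr2, a receptor of TGF-beta, had 0.15 after 8 days (limma adjusted p = 1), and Hey1, a target of Notch, had -0.16 after 13 days (limma adjusted p = 0.623). Of the 4 actin paralogs of Acta2 0 were called, and Actb had 0.19 after 8 days (limma adjusted p = 1) while Actg1 had 0.15 in recovery (limma adjusted p = 0.999).

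Called probes among the markers were all 6 of red cells and 1 of 10 of fibroblasts, Mgp. The median ratio of the 10 fibroblast markers after 13 days was 0.15. The 6 red cell genes were all called as higher after 13 days, with a median ratio of 1.42, and Hbb-b1, a beta globin, was the highest at 1.61 (SE 0.188, limma adjusted p = 0.0091). Beta-s and Hbb-b2, both globins, had 1.43 and 1.46, and Alas2, which starts heme synthesis in red cell precursors, had 1.00. At that time the median of the 10 members was 0.00. Mgp, an inhibitor of calcification made by vessel wall cells and fibroblasts, was called as higher at 0.81 (SE 0.0941, limma adjusted p = 0.0091), with 1.13, 0.67 and 0.64 in pairs 1, 2 and 3. None of these 13-day calls held with a background offset of 0 or with median centring in place of loess. The same was so in the deposited value table, with a trend in eBayes, and without 13-day pair 1 or pair 2. In these settings 0 probes were called, and the ratios of these genes there are not given. After 8 days all 6 red cell genes were higher in 3 of 3 pairs, with a median ratio of 0.70. Mgp then had 0.90, 0.60 and 0.48 in pairs 1, 2 and 3 (fitted 0.66, limma adjusted p = 0.407). None of them was called at that time. Quantitative PCR on single animals in the paper found a beta globin gene and Mgp raised by chronic stress.

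Fibroblast markers moved with some members in single pairs. In acute pair 3, where Acta2, Tagln and Vtn were lowest, 0 of the 10 fibroblast markers were higher, their summed level was 7920 in stress and 9560 in control, and their median ratio was -0.22. In acute pairs 1 and 2 the sums were 7710 and 8120 in stress and 10400 and 9130 in control, with medians of -0.12 and -0.22. In 8-day pair 1, where Acta2 and Vtn were highest, 10 of 10 were higher, with 10600 in stress, 7560 in control and a median of 0.40. Several other lists also had mostly ratios above 0 in that pair, in 14 of 14 other mural genes (median 0.16), 13 of 14 contractile genes (0.08), 4 of 4 actin paralogs (0.17), 8 of 10 endothelial markers (0.09) and 4 of 5 neuronal markers (0.13). Red cells had 6 of 6 (0.60) and ligands, receptors and targets 10 of 14 (0.13). Choroid plexus had 3 of 5 (0.15), precursors 3 of 5 (0.12), channel subunits 1 of 2 (0.01) and skeletal muscle 2 of 5 (-0.10). That pair has 1 array, with stress in Cy5. The share of all probes above 0 in it was not counted, so these counts are a description. Of the 14 contractile genes 9 were above background on all arrays. In 13-day pair 1, 10 of 10 fibroblast markers were higher with a median of 0.28, while the median of the members was 0.06. In recovery pair 1, where Abcc9 had 0.50, their median was 0.03. All 10 fibroblast markers were above background on every array, and 8 of 10 were lower in 3 of 3 acute pairs, against 14.4% of all probes. Their part in the ratios of the members was not tested.

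Endothelium, which shares the vessel with the members, had medians of -0.04, 0.06, 0.02 and -0.01 over the 4 times, with 0 of 10 markers called. Cldn5, a tight junction protein, had -0.31, -0.17 and -0.19 after 13 days (fitted -0.22, limma adjusted p = 0.323), and Tie1, an endothelial receptor, had 0.14 (limma adjusted p = 0.647). Markers of precursors, neurons, choroid plexus and skeletal muscle held 0 called probes at every time point. Olig1 had 0.21 after acute stress (limma adjusted p = 0.976), Olig2 had 0.12 after 13 days (limma adjusted p = 0.615), Snap25 had 0.14 after 8 days (limma adjusted p = 1) and Rbfox3 had 0.11 after acute stress (limma adjusted p = 0.976). Kl of choroid plexus had -0.10 after acute stress (limma adjusted p = 0.976) and Folr1 had -0.08 after 13 days (limma adjusted p = 0.745). Myh1 of skeletal muscle had 0.32 after 13 days (limma adjusted p = 0.459) and Myh4 had 0.04 after acute stress (limma adjusted p = 0.981).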

How the data were processed

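The authors scanned dual-colour Agilent 4x44K v2 mouse arrays and deposited Feature Extraction tables with red and green spot intensity, local background, 0 or 1 marks per spot and a log10 ratio of red over green. Their deposited value table holds a log2 ratio, with column medians of -0.02 to 0.03 and an unstated direction, and over probes it had a median r of 1 after rounding with ratios of stress over control made here at an offset of 0. Positions are those of mm9 in the array tables. Mean intensities were background-corrected in limma 3.58.1 (R 4.3.3) by normexp with an offset of 50, normalized by loess and Aquantile, and outlier spots were left out. The spots of a probe were averaged (39429 probes), each swap was expressed as stress over control and combined with its original by the mean, and 12 pairs of pools were fitted with a coefficient per time point and moderated variances (prior degrees of freedom 4.86). An SE is that of this fit. The fit was tested on simulated data. Pools held different mice, so p-values measure the spread between pairs of pools. Correlations used 100000 permutations over 12 pairs of pools, all 40320 over 8 pairs, all 1296 within time points and all 13824 within pair numbers. Per the file headers each pair number has its own slides and scan day, except that pairs 1 and 2 share a scan day.

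Named genes were all members, and from each of 12 lists the called probes (at most 4) or the 2 genes with the lowest unadjusted p among probes above background on all arrays, the actin and channel paralogs, and the 3 genes most like each group. The members and lists were chosen with earlier results of these data known. Alternatives changed the background, normalization, probes, arrays, blocks, weights and left-out pools. Sequences are from the array tables and RefSeq (GRCm38.p6). The dye swaps of pair 1 were not analysed here.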

Additional observations from a re-analysis of the deposited data

How the results depend on the processing

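No member was called under any of the 29 alternatives at any time point, and the 1160 member ratios under them stayed within 0.35 of 0 on the log2 scale. Of these, 88 had the other sign than the value in the text and 31 moved by more than 1 SD of the pairs. The lowest adjusted limma p, 0.0102 for Notch3 in recovery (ratio 0.09) and 0.0215 for Vtn in recovery (ratio -0.12), came with array quality weights, and neither reached a log2 ratio of 0.5. Each member had 1 probe, so averaging probes gave no other value. The minimum log2 ratio of 0.5 lies beyond every interval of a member in the text, so smaller changes could not be called whatever their p.

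Counts over all probes were unstable. The acute count of 1 was 0 with an offset of 0, with median centring, in the value table of the authors, with each time point fitted alone and with a trend in eBayes. It was 2 without background correction, with probes above background only, with a replicate block and with no minimum ratio, 3 with a dye effect, 4 with the slide as a block, 20 with array weights and 67 on arrays with stress in Cy5 alone. The 8-day count of 0 was 1 without background correction, with a dye effect, with a replicate block and with array weights, 4 with the slide as a block and 26 with stress in Cy5. The 13-day count of 9 was 0 with an offset of 0, with median centring, in the value table and with a trend, 3 with the Feature Extraction log ratio, 5 when fitted alone and 18 with stress in Cy5. The recovery count of 0 was 38 with array weights and 46 with stress in Cy5.

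Leaving out pools gave 0 to 2 acute calls, 0 to 2 after 8 days, 0 to 15 after 13 days and 0 to 2 in recovery. The 13-day count was 0 without pair 1 or pair 2 of that time and 15 without pair 3, and the acute count was 0 without acute pair 1 or 3 and 2 without acute pair 2 or 8-day pair 1 or 2. The 8-day count was 1 without 13-day pair 1 and 2 without recovery pair 3, which also gave 2 calls in recovery, and with every pair 1 left out there was 1 call after 8 days and 2 after 13 days. The smooth muscle minus pericyte difference after 8 days was 0.09 with an offset of 0 and 0.08 in the value table, against 0.03, and in recovery it was -0.21 with the Feature Extraction log ratio, against -0.11. The replicate block, with the pair number as a term, called 0 members. Same-numbered pairs had correlations of deviations of 0.04 to 0.54, -0.18 to 0.41 and -0.04 to 0.46 for numbers 1, 2 and 3. Their medians were 0.42, 0.16 and 0.22. Not every correlation was over 0.1, but each median was. The fit in the text has no term for the number, so its contrasts between time points leave this pairing out. The number goes with the slides, and 0 members were called when slides were a block. Of 45 correlations 4 passed over 12 pairs of pools, 0 in pairs 2 and 3 alone and, in a setting added after seeing the data, 1 with pair number means removed. With time point means removed 0 passed, in a test with too few permutations to count against them. The cause of these differences was not tested.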
